A study of Mus musculus with 16 samples.

Results

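Nonclassical monocytes were described in 2 sets of sorted CD45+ leukocytes, one from rejecting mouse kidney allografts 1 week after transplantation and one from naive spleen. The cells were chosen from the measured transcripts themselves. A member had at least 1 unique molecular identifier (UMI, the tag of a single captured mRNA molecule) of at least 2 of the 4 markers Ace, Treml4, Cd300e, and Adgre4. It also had fewer than 3 UMIs of C1qa, C1qb, and C1qc in sum, fewer than 2 UMIs of Ly6c2, and no UMI of Cd3e, Cd3d, Cd3g, or Cd79a. These criteria kept 374 of 59008 CD45+ cells, of which 239 of 11948 were in the kidney and 135 of 47060 in the spleen.

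In the rejection model of the study, wild-type C57BL/6J (B6) kidneys are placed in DBA/2J hosts that lose both native kidneys in the same operation, and only male mice were used. The GEO labels give strain C57BL/6J and genotype WT for both tissues and name no host, so the leukocytes of the graft may come from either strain. The naive spleen was untreated, also labelled C57BL/6J and WT. Ages are not given in the sources used here. The kidney was perfused and digested with collagenase A and DNase I, whereas the spleen was mashed and its red cells lysed, without collagenase. The sources name the same library kit for both tissues. Tissue, transplantation, and digestion differ together, as may the strain of the cells and the processing of the reads. They cannot be told apart in any difference below.

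Monocytes are made in the bone marrow and circulate in classical and nonclassical forms. Classical monocytes carry much Ly6C, enter inflamed tissue, and can turn into macrophages or into nonclassical monocytes under the transcription factor Nr4a1. Nonclassical monocytes carry little Ly6C and much Cx3cr1 and the integrin LFA-1 (Itgal), and are known for crawling along the inner wall of small vessels, including those of the kidney. Interferon-gamma, the main product of activated T and NK cells, acts on such cells through its receptor and switches on guanylate-binding proteins, chemokines, and antigen presentation.

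The 2 kidney libraries held 5377 and 6571 cells and the 5 spleen libraries 8052 to 11340 cells, told apart by a tag in each cell barcode. The study treats every mouse as its own sample and pools the replicates of a time point, but gives no separate number of rejecting or naive mice. No source used here links a barcode tag to a mouse, so p-values measure the spread between libraries, which may be partly technical. Library totals ranged from 13437087 to 37016197 UMIs. The members of a library summed to 130085 and 390887 UMIs in the kidney and to 86902 to 179188 UMIs in the spleen. A member held a median of 1943 and 1956 UMIs in the kidney libraries and 2785 to 5665 UMIs in the spleen libraries. Mitochondrial transcripts made up a median of 0.460% to 0.665% of a member's UMIs in the kidney and 2.40% to 3.34% in the spleen. Of 58603 distinct barcodes 404 occurred in 2 or more libraries, and 7 members carried such a barcode.

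In the kidney, Adgre4 was the marker found most often, with a UMI in 212 members (88.7%), followed by Treml4 in 68.2%, Ace in 46.0%, and Cd300e in 26.8%. In the spleen Treml4 and Adgre4 were each found in 108 members (80.0%), Ace in 77.8%, and Cd300e in 48.1%. Ace encodes angiotensin-converting enzyme, Adgre4 an adhesion receptor, and Treml4 and Cd300e are immunoglobulin-type receptors of myeloid cells. Among T cells, which should lack all 4 markers, a UMI was found in 0.443% to 2.44% of kidney cells (median 2439 UMIs) and 0.126% to 0.601% of spleen cells (median 3897 UMIs). Treml4 together with Adgre4 was the most common pair in the kidney (139 members, 58.2%), and Ace together with Adgre4 the most common in the spleen (85 members, 63.0%). These shares chose the cells and are given as a description, and the deeper spleen cells had more chances of showing any marker.

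Most kidney members stood just inside the limit on markers. In the kidney 181 cells had 2 markers, 45 had 3, and 13 had all 4, whereas 408 cells that met the other criteria had only 1. In the spleen 52, 50, and 33 cells had 2, 3, and 4 markers and 92 had 1. At the limit on complement C1q, 7 kidney members had 2 UMIs and 1 cell just outside had 3, against 10 and 8 cells in the spleen. At the limit on Ly6c2, 62 kidney members had 1 UMI and 38 cells just outside had 2, against 22 and 6 cells in the spleen. In all, C1q alone left out 38 kidney and 90 spleen cells, and Ly6c2 alone 123 and 41. A T or B cell UMI alone left out 35 and 83. These cells did not enter the shares below. Adgre4 had a UMI in 7.49% of kidney and 49.3% of spleen macrophages, cells with 3 or more C1q UMIs and no T or B cell UMI.

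The name was checked on 18 further genes of nonclassical monocytes that the rule did not use, among them Nr4a1, Spn, Cx3cr1, Itgal, and Ear2. In both tissues all 18 genes had a higher CPM (counts per 1e6 UMIs) in the members than in classical monocytes of the same tissue. For Fabp4 in the kidney this was 1.93 against 0 CPM, below the 5.78 CPM that 3 counts make there, so its direction carries no weight. Cells with 2 markers were higher than cells with 1 marker for 17 of the 18 genes in each tissue. Of 15 genes of classical monocytes 13 were lower in kidney members and 14 in spleen members than in classical monocytes. Ccr2, Vcan, F13a1, and Fn1 are among the 15 and also helped to choose the classical monocytes. Their direction was therefore set in part by that choice. Of 16 macrophage genes 7 were higher and 8 lower in kidney members than in classical monocytes, and 11 were higher and 4 lower in spleen members. Apoe was at 2229 CPM in spleen members and 1880 CPM in spleen macrophages, and Hpgd at 381 and 369.6 CPM, while Vcam1 was at 47.8 and 2166.3 CPM and Cd163 at 0 and 166 CPM. Of these 304 spleen macrophages 90 met every criterion of the rule except that on C1q. The leading genes against all other CD45+ cells, after the 4 markers, were Lilra5, Plpp1, Fpr1, Hes1, and Smpdl3b in the kidney. In the spleen they were Fabp4, Ear2, Apoc2, Krt80, and Zfyve9. Xcr1, a receptor of cross-presenting dendritic cells, was among the 15 leading genes of the spleen members.

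Markers of other cell types were few in the kidney members and more frequent in some spleen libraries. A UMI of a marker of dendritic cells, NK cells, neutrophils, or platelets was found in 9 of 239 kidney members and 19 of 135 spleen members, of which 6 were among the 16 members of spleen library 2. These counts were not matched for depth, and the deeper spleen members had more chances of showing a marker. Members with such a UMI had medians of 3204 and 3664 UMIs in the kidney libraries and 5541 to 9232 UMIs in the spleen libraries. The summed level of 14 dendritic cell genes was 84.9 to 87.3 CPM in the kidney libraries and 152 to 1229 CPM in the spleen libraries. Flt3, Xcr1, and Cd209a were at 0 in the kidney members, as was Siglech in both tissues. The summed level of 10 NK cell genes was 0 to 20.5 CPM in the kidney and 0 to 749 CPM in the spleen, and that of 10 neutrophil genes 139 to 311 and 76.8 to 28247 CPM, the latter in spleen library 1. In the kidney 7 of the 10 NK cell genes were at 0. Of 11 T and B cell genes outside the rule the sum was 30.9 to 41.1 CPM in the kidney and 221 to 413 CPM in the spleen. Of 9 platelet and red cell genes the sum was 0 to 5.14 and 0 to 198 CPM. Results were therefore also computed without the members that had a marker UMI of these cells, here called the members without other markers, a choice made after seeing the data.

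Nonclassical monocytes made up a larger share of CD45+ cells in both kidney libraries than in any spleen library. The share was 3.29% (95% exact interval 2.83% to 3.80%) in kidney library 1 and 0.944% (0.724% to 1.21%) in kidney library 2. The 5 spleen libraries held 0.353%, 0.199%, 0.410%, 0.243%, and 0.209%. The mean was 2.12% ± 1.66 (SD, n = 2) against 0.283% ± 0.0938 (SD, n = 5), with an exact two-sided permutation p of 0.0952, the smallest that 2 against 5 libraries can give. The groups did not overlap, but the kidney libraries differed from each other by more than the difference between kidney library 2 and the spleen. When at least 3 markers were required, the shares were 0.930% and 0.122% in the kidney and 0.0994% to 0.288% in the spleen, and the groups overlapped (exact permutation p = 0.476). After every cell was thinned to 1000 UMIs the means were 1.35% and 0.185%. The difference of 1.84 points was 0.661 points without kidney library 1 and 3.01 points without kidney library 2.

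**Figure D1:**
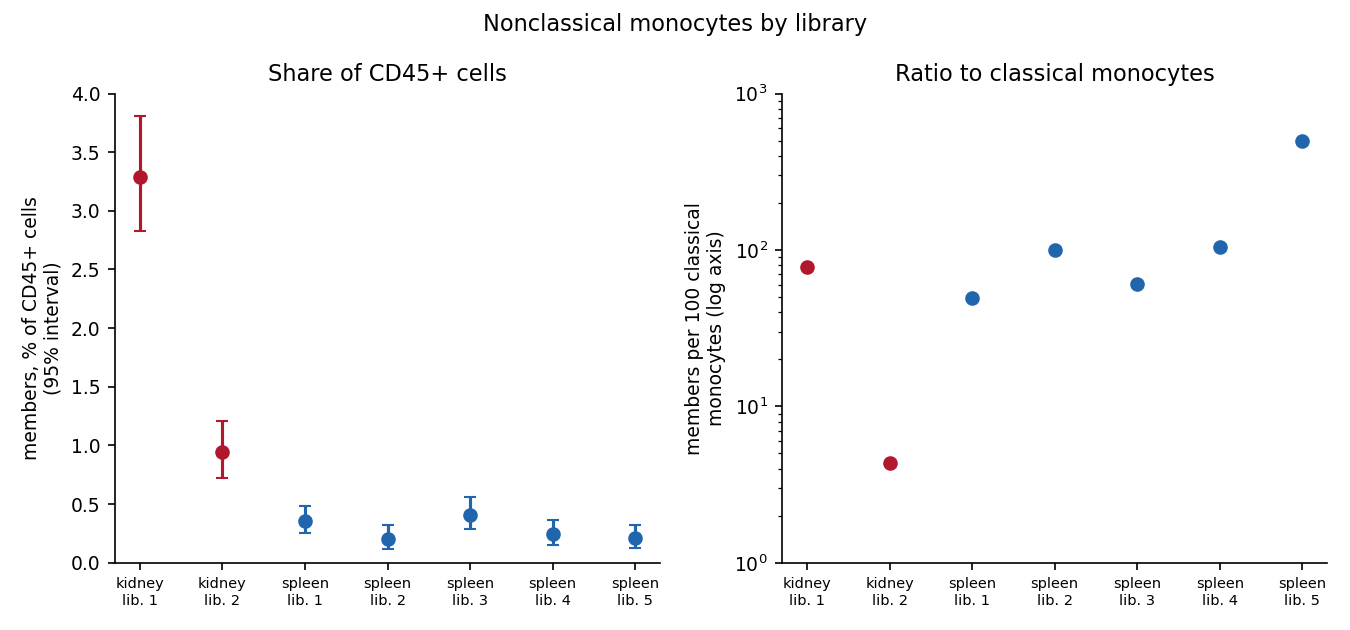
Members as a percentage of CD45+ cells (left, with 95% exact binomial intervals) and per 100 classical monocytes of the same library (right, log axis), 1 point per library. Kidney library 1 stands highest on the left at 3.29%, and kidney library 2 lowest on the right at 4.31.

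Relative to classical monocytes the picture was different. Classical monocytes were defined by at least 2 Ly6c2 UMIs and UMIs of at least 2 of Ccr2, Vcan, Csf1r, F13a1, and Fn1, with at most 1 of the 4 nonclassical markers, the same limit on C1q, and no UMI of the T, B, or NK cell markers. They numbered 226 and 1437 in the kidney libraries and 81, 16, 61, 21, and 4 in the spleen libraries. There were 78.3 and 4.31 nonclassical per 100 classical monocytes in the kidney and 49.4, 100, 60.7, 104.8, and 500 in the spleen, the last resting on 4 classical cells. The log2 ratio was lower in the kidney by a difference of −2.57, which did not pass an exact permutation test (p = 0.286). The difference was −0.48 without kidney library 2 and −4.66 without kidney library 1. With at least 3 markers there were 22.1 and 0.557 per 100 in the kidney and 29.6 to 300.0 in the spleen, without overlap, a difference of −4.21 (exact permutation p = 0.0952, the smallest possible). After every cell was thinned before the rule it was −1.31 over 2 kidney and 4 spleen libraries, since spleen library 5 gave no value (exact permutation p = 0.533).

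Across genes, the members of the 2 tissues differed widely. Of 3069 genes tested by edgeR on UMIs summed per library, 842 (27.4%) were higher and 484 (15.8%) lower in the kidney at an adjusted p below 0.05, or 43.2% in either direction, with a median log2 fold change of 0.14 over all genes. The filter asked for 77.2 CPM or more in at least 2 libraries, which the kidney alone met for 498 genes and the spleen alone for 767. Of the former 441 (88.6%) were higher and 0 lower, and of the latter 233 (30.4%) were lower and 0 higher, so that the filter had a part in their direction. Of 1689 genes that passed in both tissues 398 (23.6%) were higher and 251 (14.9%) lower. For 1522 genes (49.6%) the libraries of the tissues did not overlap, the share to set beside each mention of no overlap below. Scaling by TMM factors moved the median to −0.03, and 731 genes were then higher and 640 lower, so that higher genes made up 53.3% of the calls in place of 63.5%. Without kidney library 1 the calls fell to 534 and 247, and without kidney library 2 to 703 and 322. Genes with long introns were read higher in the kidney libraries. In the group of 595 genes with the longest introns the median was 1.17 and 1.30 above the mean of the spleen libraries on the log2 scale, and in the group with the shortest it was −0.56 and −0.44, whereas single spleen libraries stayed within −0.03 and 0.17 of their mean in the longest group. With this shift taken out 643 genes were higher and 518 lower, of which 581 and 354 were among the 842 and 484 above. In bulk sums such as these, fewer cells with a transcript and less of it per cell cannot be told apart, and shares of cells are given below where they were counted.

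Most interferon-gamma response genes were higher in the kidney members. Of a list of 30 genes, 23 passed the filter on low counts, and 21 of these were higher, 0 were lower, and 2 did not pass (background 27.4% higher). The median log2 fold change of the 23 genes was 3.97, beside 0.14 over all genes tested. The low-count filter was met by the kidney alone for 17 of the 23 genes, all of them higher, so their direction was set in part by the filter. Of the 6 genes that passed in both tissues 4 were higher and 2 did not pass the test. With no filter 25 of 28 genes with any UMI were higher and 0 lower, beside 9.42% of 12771 genes higher. The same 21 genes were called under TMM scaling and with the intron shift removed, and 20 of them by DESeq2. Among members with 3 or 4 markers 16 of 18 tested genes were higher, where 24.9% of 1632 genes were higher and 14.8% lower, or 39.6% in either direction. The summed level of the list was 11243 and 17909 CPM in the kidney libraries and 1479 to 2132 CPM in the spleen libraries.

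The promoters of 4 of these genes are shown because the letters that interferon-induced factors are known to bind can be read in them. They are the gamma-activated site (GAS, searched as TTCNNNGAA) and the interferon-stimulated response element of IRF factors (ISRE, of which the core, GAAA and GAAA with 2 bases between them, was searched), both on either strand. The sequences run from 250 bases before to 50 after the start site (RefSeq, GRCm38.p6), and capitals mark the matches. They lie at chr11:53769764-53770063 for Irf1, chr3:142620413-142620712 for Gbp2, chr3:142530086-142530385 for Gbp7, and chr11:58199306-58199605 for Igtp, all on the plus strand.
Irf1: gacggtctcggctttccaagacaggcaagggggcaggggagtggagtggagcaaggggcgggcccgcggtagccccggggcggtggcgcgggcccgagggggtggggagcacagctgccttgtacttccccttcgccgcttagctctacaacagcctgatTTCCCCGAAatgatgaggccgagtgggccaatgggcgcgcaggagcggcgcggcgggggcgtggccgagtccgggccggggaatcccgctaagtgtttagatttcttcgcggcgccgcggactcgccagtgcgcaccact
Gbp2: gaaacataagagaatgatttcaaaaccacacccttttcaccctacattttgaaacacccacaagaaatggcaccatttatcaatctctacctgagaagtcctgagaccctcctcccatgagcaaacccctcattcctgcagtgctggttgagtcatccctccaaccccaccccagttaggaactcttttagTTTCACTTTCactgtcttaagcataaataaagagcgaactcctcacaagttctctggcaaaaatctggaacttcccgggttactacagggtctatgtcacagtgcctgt
Gbp7: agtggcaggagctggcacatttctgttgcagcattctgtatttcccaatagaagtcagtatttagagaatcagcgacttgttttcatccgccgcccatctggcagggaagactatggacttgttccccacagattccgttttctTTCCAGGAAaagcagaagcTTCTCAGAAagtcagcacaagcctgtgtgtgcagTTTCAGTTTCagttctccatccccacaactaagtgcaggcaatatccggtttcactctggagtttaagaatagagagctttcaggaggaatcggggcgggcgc
Igtp: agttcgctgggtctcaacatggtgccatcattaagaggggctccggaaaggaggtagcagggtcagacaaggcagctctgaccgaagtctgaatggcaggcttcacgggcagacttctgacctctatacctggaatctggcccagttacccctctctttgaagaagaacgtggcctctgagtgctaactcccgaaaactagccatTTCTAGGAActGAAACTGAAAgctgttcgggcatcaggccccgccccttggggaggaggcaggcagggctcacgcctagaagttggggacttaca
Irf1 held a GAS that began 90 bases before the start, and Gbp2 an ISRE core 59 bases before it. A second Irf1 promoter (chr11:53770223-53770522) held neither motif, and a gene was counted below if any of its promoters held a match. Gbp7 held GAS matches 106 and 87 bases before the start and an ISRE core at 53, and Igtp a GAS at 45 and an ISRE core at 34. Of the 21 genes higher in the kidney 15 had a promoter in the RefSeq table, and 10 of these (66.7%) held at least 1 of the motifs, against 12.9% of 27025 genes with a promoter. Over the whole list of 30 genes 14 of 20 promoters (70.0%) held at least 1, and of the type I interferon response genes higher in the kidney 4 of 7 (57.1%) did. A match describes the letters and not a bound site.

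Among the regulators, Irf1, a transcription factor that interferons induce, was at 573 and 764 CPM against 68.6, 144, 39.1, 28.5, and 69.0 CPM, a log2 fold change of 3.30 (SE 0.33, edgeR adjusted p = 4.2e-07). Both kidney values lay above every spleen value. Ciita, the regulator of MHC class II genes, was 1 of the 2 genes that did not pass, with 249 and 216 CPM inside the spleen range of 91.5 to 489.9 CPM (log2 fold change −0.10, edgeR adjusted p = 0.86). Among the members without other markers its log2 fold change was 1.03, so its direction turned with the cells counted.

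The guanylate-binding proteins and immunity-related GTPases, which attack the vacuoles of microbes inside cells, made up much of the list. Gbp2 was at 973 and 1366 CPM in the kidney and at 30.5, 28.8, 27.9, 57.1, and 23.01 CPM in the spleen (log2 fold change 5.11, SE 0.27, edgeR adjusted p = 4.7e-10). Gbp5 was at 742 and 1698 CPM against 22.9, 9.60, 5.58, 28.5, and 34.5 CPM (5.98, SE 0.39, edgeR adjusted p = 4.5e-09). Gbp7 and Igtp had log2 fold changes of 5.26 and 3.48. None of these genes overlapped between the tissues. Iigp1 was at 1086 and 1767 CPM in the kidney with 0 UMIs in the 5 spleen libraries, at least 254-fold higher when the spleen is set to the 3 counts that a 0 allows over the group. On the same floor Gbp2b was at least 72.8-fold and Gbp6 at least 22.98-fold higher. T cells of the kidney libraries, a measure of how much of such RNA other cells and free RNA carry, held 325 to 383 CPM of Iigp1 and 239.9 to 269 CPM of Gbp2, below the members in both libraries.

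Chemokines that draw T cells were also part of this list. Cxcl9 was at 1453 and 2816 CPM in the kidney and at 7.62, 240.1, 22.3, 28.5, and 23.01 CPM in the spleen (log2 fold change 5.15, SE 0.52, edgeR adjusted p = 4.8e-07). Spleen library 2 was the highest of its group, and among the members without other markers the spleen libraries held 0 to 8.91 CPM and the log2 fold change was 8.64. Cxcl10 was at 262 and 957 CPM, whereas only spleen library 1 had any (38.1 CPM), with a log2 fold change of 6.01. T cells of the kidney held 731 to 744 CPM of Cxcl9 and 75.9 to 113 CPM of Cxcl10, and the part of free RNA in the members' level was not tested.

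**Figure D2:**
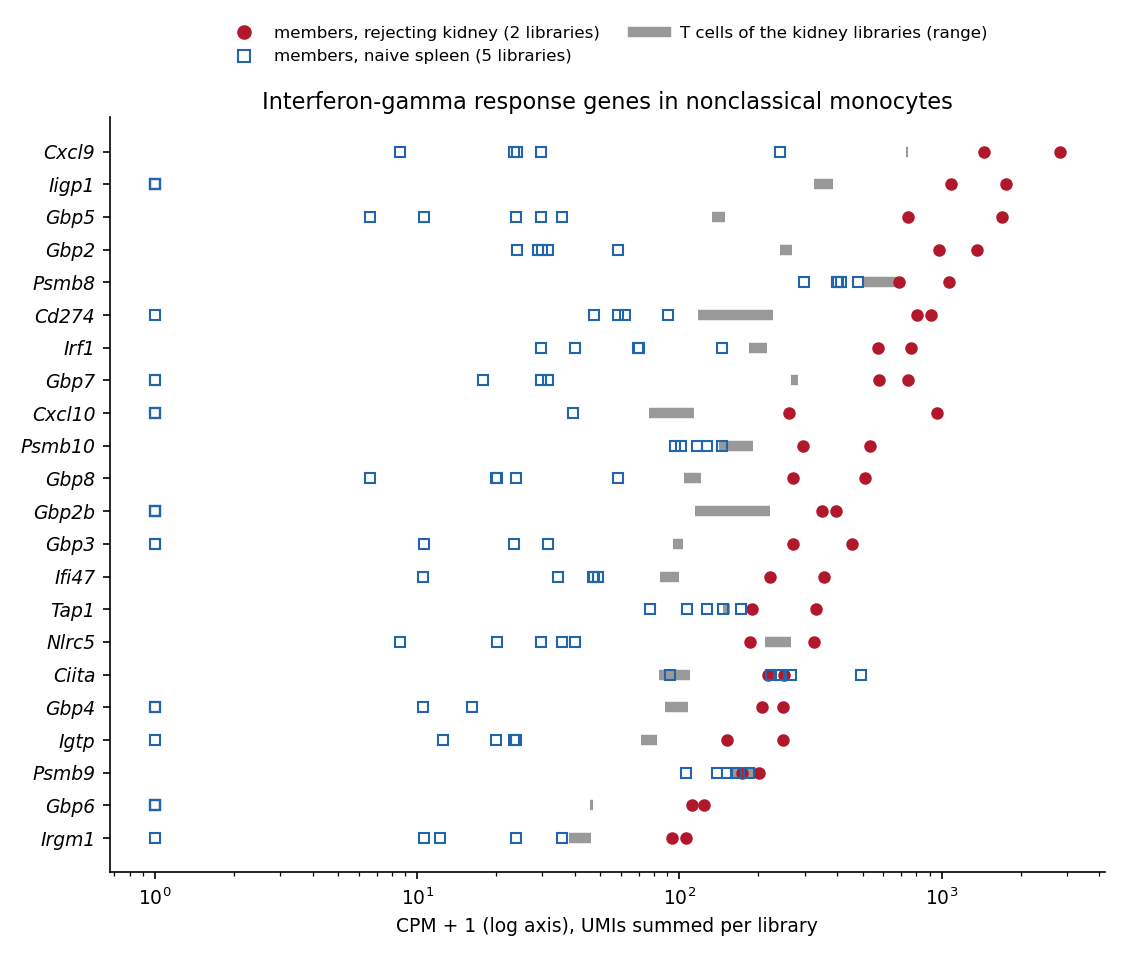
UMIs of 22 of the 23 tested interferon-gamma response genes summed over members, as CPM + 1 on a log axis, with 1 point per library (filled circles rejecting kidney, open squares naive spleen) and a grey bar for the range of T cells in the kidney libraries. Ciita and Psmb9 are the genes whose kidney and spleen points mix, while Iigp1, Gbp2b, and Gbp6 have every spleen point at 0 CPM.

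Counted per cell, genes of the list were found in nearly all kidney members. After each member was thinned to 1000 UMIs, at least 2 genes of the list were found in 174 of 177 and 62 of 62 members of the kidney libraries and in 30% to 50% of the members of the spleen libraries. The means were 99.2% ± 1.20 (SD, n = 2) and 39.3% ± 7.60 (SD, n = 5), without overlap, with an exact permutation p of 0.0952 (0.238 adjusted over 5 lists). A thinned kidney member had a median of 7 and 9.5 genes of the list in the 2 libraries, and a spleen member 1 to 1.5. The same count gave 69.5% in T cells of the kidney and 45.7% in T cells of the spleen (library medians of 1928 to 3182 and 3373 to 4502 UMIs), and 99.6% and 29.7% in classical monocytes. Without thinning the members' means were 100% and 85.9%.

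Of 31 type I interferon response genes 15 were tested, of which 8 were higher (27.4% of all genes tested), 0 were lower, and 7 did not pass, with a median of 1.16. The filter was met by the kidney alone for 6 of the 8. Among members with 3 or 4 markers 1 of 6 tested genes was higher, with a median of −0.63. Rsad2, an antiviral enzyme, was at 128 and 177 CPM against 22.9, 19.2, 50.2, 9.52, and 23.01 CPM (log2 fold change 2.40, edgeR adjusted p = 1.6e-04). Isg15, a ubiquitin-like protein, was at 116 and 169.8 CPM against 33.5 to 61.0 CPM (1.66, edgeR adjusted p = 0.0011). Both genes had no overlap between the tissues. Among the members without other markers 6 of 14 genes were higher. The share of thinned members with at least 2 genes of the list was 69.1% ± 20.95 (SD, n = 2) in the kidney and 41.4% ± 15.9 (SD, n = 5) in the spleen, and the libraries overlapped (exact permutation p = 0.190). The difference of 27.7 points was 12.9 points without kidney library 2, 42.5 points without kidney library 1, and 6.37 points without thinning. In T cells it was 23.2% in the kidney and 26.8% in the spleen.

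**Figure D3:**
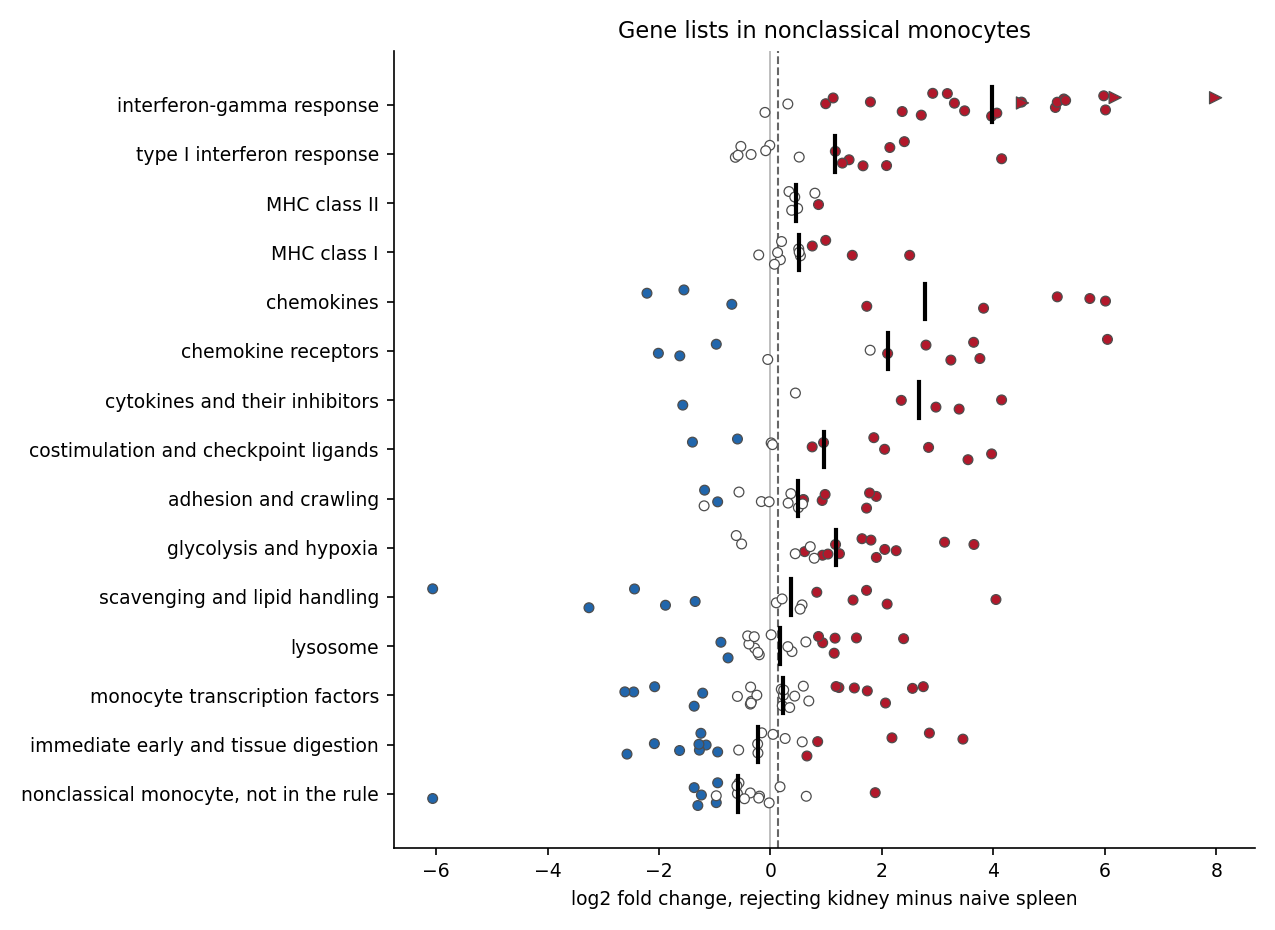
Log2 fold changes (rejecting kidney minus naive spleen) of the tested genes of 15 lists, 1 point per gene, filled red where higher and blue where lower at an adjusted p below 0.05 and white otherwise. Triangles are lower bounds for genes at 0 in the spleen, black bars the list medians, and the dashed line the median of all genes tested (0.14). The interferon-gamma list lies farthest to the right, with a median of 3.97.

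MHC class II genes, which present peptides to CD4+ T cells, were high in the sums of both tissues but were spread differently over the cells. In summed UMIs 1 of 6 tested genes of a list of 9 was higher and 5 did not pass, with a median of 0.46 (27.4% of all genes tested were higher). H2-Aa was at 3160.4 and 2461 CPM in the kidney and at 1441, 3208, 2338, 1560.5, and 2808 CPM in the spleen, and the tissues overlapped (log2 fold change 0.33, edgeR adjusted p = 0.32). Cd74, the invariant chain, was at 8483 and 9468 CPM against 2866, 7492, 4811, 4092, and 5765 CPM, without overlap (0.86, SE 0.24, edgeR adjusted p = 0.0065), a call that ended under TMM scaling (edgeR adjusted p = 0.051), in DESeq2 (adjusted p = 0.056), and without kidney library 2 (edgeR adjusted p = 0.065).

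After thinning, a UMI of H2-Aa was found in 193 of 239 kidney members (80.8%) and in 46 of 133 spleen members (34.6%). At least 2 class II genes were found in 92.8% ± 3.37 (SD, n = 2) of kidney members and 39.5% ± 6.90 (SD, n = 5) of spleen members, without overlap (exact permutation p = 0.0952, 0.238 adjusted over 5 lists). The spleen libraries each held 31.3% to 50% of members with no class II UMI, and the kidney libraries 0% and 1.13%. The share was 27.3% in T cells of the kidney and 2.22% in T cells of the spleen, and 100% and 99.0% in B cells, which make these proteins. Kidney T cells held 578 to 1292 CPM of H2-Aa and spleen T cells 30.2 to 80.1 CPM.

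The class II sums of the spleen depended on which members were counted. Without the members that had other markers, all 6 tested class II genes were higher in the kidney, with a median of 1.37 (27.9% of 2821 genes were higher in that comparison). All 6 were also higher without members with NK cell, neutrophil, or platelet markers or the dendritic cell markers Flt3 or Siglech (median 1.09). That held too without the deepest members, those with over 3 times the median UMIs of their library (median 0.98). Which of these cells the change rests on was not tested. H2-Aa then stood at 2398 and 3188 CPM in the kidney and at 468 to 2164 CPM in the spleen (log2 fold change 1.10, edgeR adjusted p = 9.6e-04), and Cd74 at 1.54. Irf8, a transcription factor of dendritic cells and monocytes, behaved in the same way, with a log2 fold change of 0.23 (edgeR adjusted p = 0.67) in all members and 1.40 (edgeR adjusted p = 4.1e-05) in those without other markers. Its highest spleen value was 1143 CPM in library 2, the library with the most Xcr1.

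**Figure D4:**
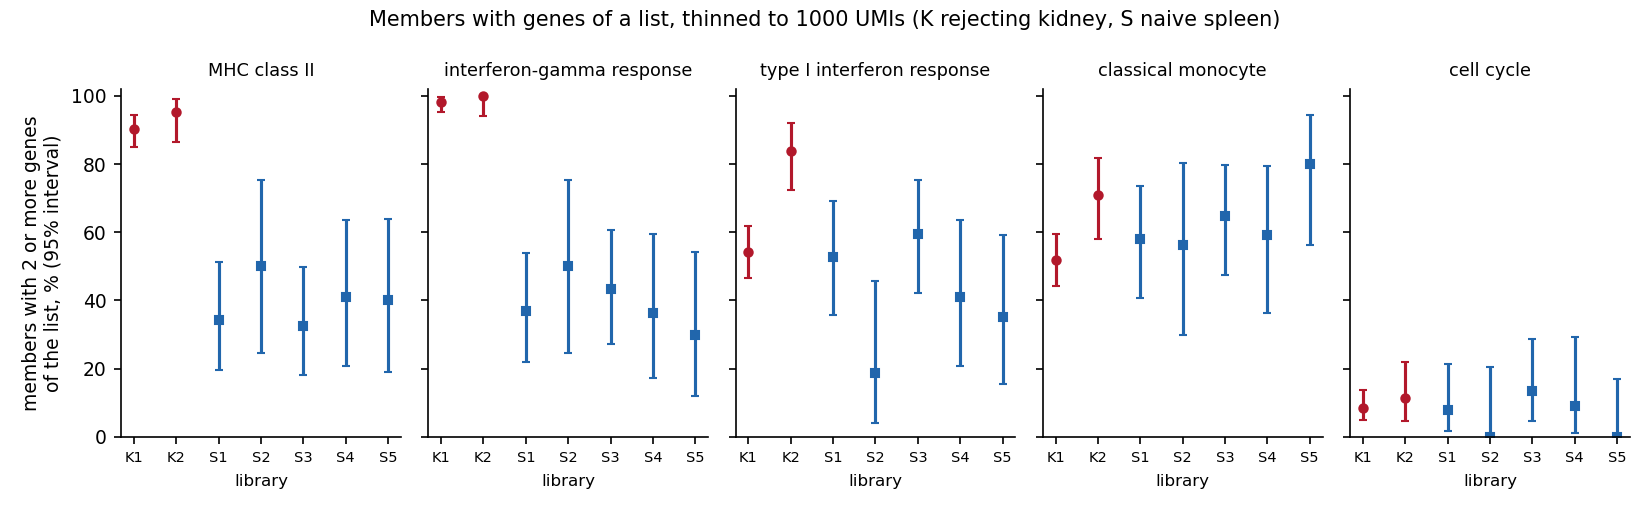
Percentage of members, each thinned to 1000 UMIs, with UMIs of at least 2 genes of a list, by library (K1 and K2 rejecting kidney, S1 to S5 naive spleen) with 95% exact intervals. Both kidney libraries lie above every spleen library for MHC class II and the interferon-gamma response, and the tissues overlap for the type I, classical monocyte, and cell cycle lists.

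Of 16 MHC class I genes 12 were tested, of which 4 were higher (27.4% of all genes tested), 0 lower, and 8 did not pass (median 0.51). The filter was met by the kidney alone for 2 of the 4. With the intron shift removed 7 were higher (median 0.83, with 643 of all 3069 genes higher), DESeq2 called 1, and among members with 3 or 4 markers 0 of 9 were higher and 1 lower. B2m, the light chain of class I molecules, was at 2447 and 2307 CPM within 1815 to 2456 CPM of the spleen (log2 fold change 0.18, edgeR adjusted p = 0.46). Psmb8, a subunit of the immunoproteasome, was at 688 and 1065 CPM against 297, 413, 479.9, 399.6, and 403 CPM (1.12, SE 0.22, edgeR adjusted p = 3.9e-04), with no overlap. Psmb9, another of its subunits, did not pass (0.31, edgeR adjusted p = 0.37).

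Of the chemokine receptors, 11 of 16 genes were tested, 6 were higher and 3 lower in the kidney members (27.4% and 15.8% of all genes tested), with a median of 2.10. The 6 met the filter in the kidney alone. Among members with 3 or 4 markers 4 genes were tested, with 1 higher, 2 lower, and a median of −0.80. Fpr2, which senses formylated peptides of bacteria and mitochondria, was at 452 and 332 CPM against 0 to 68.6 CPM (log2 fold change 3.76, SE 0.44, edgeR adjusted p = 2.6e-06). Cx3cr1, the fractalkine receptor that keeps these cells at the vessel wall, was lower at 231 and 201 CPM against 373, 471, 391, 533, and 426 CPM (−0.97, SE 0.23, edgeR adjusted p = 0.0024). Cxcr4, which holds cells in the bone marrow, was lower at 38.5 and 7.72 CPM against 48.0 to 167 CPM (−2.01, edgeR adjusted p = 0.0025). Ccr2, which brings classical monocytes out of the marrow, was at 306 and 316 CPM within the spleen range of 221 to 529 CPM (−0.05, edgeR adjusted p = 0.91).

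All 8 tested chemokine genes of a list of 18 passed the test, 5 higher and 3 lower (27.4% and 15.8% of all genes tested), with a median of 2.78. The 5 met the filter in the kidney alone, and with the intron shift removed 1 was lower. Among members with 3 or 4 markers 1 of 4 tested genes was higher, with a median of −0.68. Cxcl2, which draws neutrophils, was at 267 and 347 CPM in the kidney and found in spleen library 1 alone (22.9 CPM, 3 UMIs), a ratio of 58.0 with a counting interval of 19.5 to 284.6. Ccl9 was lower, at 59.0 and 30.9 CPM against 83.7 to 221 CPM (−1.55, edgeR adjusted p = 0.0057), and did not pass among members with 3 or 4 markers (−0.62, edgeR adjusted p = 0.41). Of 6 tested cytokine genes of 19 on the list, 4 were higher and 1 was lower (27.4% and 15.8% of all genes tested). The filter was met by the kidney alone for 3 of the 4 and by the spleen alone for the lower gene. Of the 2 genes that met it in both tissues 1 was higher. Il1b, the inflammatory cytokine IL-1β, was at 1139.9 and 903 CPM against 366, 125, 268, 105, and 104 CPM (2.35, SE 0.31, edgeR adjusted p = 9.8e-06). Its receptor antagonist Il1rn was higher as well, at 175 and 201 CPM against 0 to 46.0 CPM (2.97, edgeR adjusted p = 2.1e-05). Tnf was at 177 and 224 CPM against 0 to 48.0 CPM (3.39, edgeR adjusted p = 1.3e-05). None of the 3 overlapped between the tissues, as was so for 49.6% of all genes tested. Kidney T cells held 53.2 to 172, 22.3 to 48.3, and 31.4 to 47.8 CPM of them.

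Of 21 costimulatory and checkpoint ligands 11 were tested, of which 7 were higher and 2 lower (27.4% and 15.8% of all genes tested), with a median of 0.95. The filter was met by the kidney alone for 3 of the 7 higher and by the spleen alone for 1 of the 2 lower genes. With the intron shift removed and in DESeq2 5 were higher and 2 lower. Cd274, the inhibitory ligand PD-L1, was at 909 and 802 CPM in the kidney and at 61.0, 0, 89.3, 57.1, and 46.0 CPM in the spleen (log2 fold change 3.97, SE 0.35, edgeR adjusted p = 8.7e-08). Cd86, a costimulatory ligand of T cells, was at 539 and 401 CPM against 91.5, 144, 27.9, 57.1, and 23.01 CPM (2.84, SE 0.37, edgeR adjusted p = 8.1e-06). The tissues did not overlap for either ligand. After thinning, 54.0% of kidney and 5.26% of spleen members had a Cd274 UMI. T cells of the kidney held 117 to 227 CPM of Cd274 and 72.1 to 163 CPM of Cd86.

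Of 21 adhesion genes 17 were tested, with 6 higher, 2 lower, and 9 that did not pass (median 0.50), shares near the 27.4% and 15.8% over all genes. Itga4, a chain of the integrin VLA-4, was at 1709.9 and 1389 CPM against 793, 941, 876, 771, and 748 CPM (0.93, edgeR adjusted p = 9.6e-04), and Icam1, the ligand of LFA-1, at 211 and 324 CPM against 30.5 to 127 CPM (1.78, edgeR adjusted p = 4.3e-04). Selplg, the ligand of selectins, was lower at 126 and 147 CPM against 269 to 343 CPM (−1.18, edgeR adjusted p = 0.0013). Of the Fc receptors 2 of 5 tested genes of 10 were higher, beside 27.4% of all genes tested. The count was 1 of 5 under TMM scaling, in DESeq2, without the deepest members and without the members with other markers, 1 of 3 with 3 or 4 markers, and 3 of 5 with the intron shift removed. Fcgr4, the activating IgG receptor typical of these cells, was at 575 and 448 CPM against 236, 86.4, 212, 47.6, and 80.6 CPM (1.88, SE 0.35, edgeR adjusted p = 3.1e-04), again with no overlap.

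Of 25 genes of glycolysis and the response to low oxygen 17 were tested, of which 12 were higher, 0 lower (27.4% and 15.8% of all genes tested), and 5 did not pass (median 1.17). The filter was met by the kidney alone for 5 of the 12, and of the 11 genes that met it in both tissues 7 were higher (median 0.93). Under TMM scaling 11 were higher and 2 lower, in DESeq2 8 were higher and 0 lower, and among members with 3 or 4 markers 4 of 10 were higher and 1 lower. Hif1a, the oxygen-sensing transcription factor, was at 318 and 332 CPM against 76.2, 86.4, 89.3, 114, and 69.0 CPM (1.90, SE 0.26, edgeR adjusted p = 1.1e-05). Hk3, a hexokinase, had a log2 fold change of 3.12 and Tpi1, a triose isomerase, one of 1.80. Kidney T cells held 382 to 418 CPM of Hif1a, more than the members, and 205 to 307 CPM of Tpi1.

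Of 23 genes of lipid handling and scavenging 14 were tested, with 5 higher and 5 lower (median 0.37, 27.4% and 15.8% of all genes tested). The filter was met by the spleen alone for 4 of the 5 lower and by the kidney alone for 2 of the 5 higher genes, and of the 7 genes that met it in both tissues 2 were higher and 1 lower. With the intron shift removed 3 were higher and 5 lower, and in DESeq2 2 and 4. Apoe, the lipoprotein of cholesterol transport, was lower in both kidney libraries (659.8 and 139 CPM) than in the spleen (3087, 1662, 1512, 2036, and 3326 CPM), a log2 fold change of −2.44 (SE 0.45, edgeR adjusted p = 2.3e-04). Msr1, a scavenger receptor, was at 393 and 502 CPM against 38.1, 9.60, 27.9, 47.6, and 0 CPM (4.05, SE 0.38, edgeR adjusted p = 1.9e-07). Cd36, a fatty acid and lipoprotein receptor, was at 573 and 224 CPM against 83.8 to 219 CPM (1.72, edgeR adjusted p = 6.0e-04), and the call was lost without kidney library 1 (0.81, edgeR adjusted p = 0.22). Kidney T cells held 117 to 1466 CPM of Apoe, in one library more than the members.

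Of 18 tested lysosomal genes of 24, 6 were higher and 2 lower, near the 27.4% and 15.8% over all genes, with a median of 0.16. Ctss, the protease that trims the invariant chain, was at 4126 and 3727 CPM against 1143 to 1555 CPM (1.54, SE 0.18, edgeR adjusted p = 1.9e-06). Ctsc, the activator of granule proteases, was at 960.2 and 1389 CPM against 163 to 268 CPM (2.39, edgeR adjusted p = 1.2e-07). Of 8 tested genes of clotting, fibrinolysis, and matrix of 22 on the list, 4 were higher and 2 lower (median 1.56, 27.4% and 15.8% of all genes tested). The filter was met by the kidney alone for 3 of the 4. Of the 2 genes that met it in both tissues 1 was higher and 1 lower. Plaur, the urokinase receptor, was at 246 and 247 CPM against 9.60 to 34.5 CPM (3.39, edgeR adjusted p = 4.0e-07), and Mmp14, a membrane-bound collagenase, at 185 and 231 CPM against 0 to 9.52 CPM (3 spleen UMIs, ratio 39.7, counting interval 13.2 to 195.8). Of 16 S100, annexin, and galectin genes 15 were tested, with 4 higher and 2 lower, again near the shares over all genes, and Lgals1, galectin-1, had a log2 fold change of 1.99.

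Among 31 transcription factors of monocytes 26 were tested, of which 7 were higher, 5 lower, and 14 did not pass (median 0.22), close to the 27.4% and 15.8% over all genes. Nfe2l2, which drives the response to oxidative stress, was at 1050.0 and 1651 CPM against 191, 231, 251, 238, and 242 CPM (2.55, SE 0.21, edgeR adjusted p = 5.0e-08). Klf2, a factor of quiescence, was lower at 151 and 255 CPM against 1006, 797, 776, 761, and 794 CPM (−2.08, SE 0.26, edgeR adjusted p = 4.2e-06). Cebpb, which nonclassical monocytes need to survive, was lower at 311 and 224 CPM against 519 to 929.9 CPM (−1.37, edgeR adjusted p = 2.9e-04). Nr4a1 itself was at 308 and 139 CPM against 317 to 428 CPM and did not pass (−0.59, edgeR adjusted p = 0.087), though it did under TMM scaling and among the members without other markers (−0.92, edgeR adjusted p = 0.0078). Zeb2 was higher (1.18), but its difference was 0.00 once the intron shift was removed.

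Of 20 tested genes of survival and death 8 were higher and 1 was lower (23 on the list, median 0.34, 27.4% and 15.8% of all genes tested), and DESeq2 called 5 higher and 1 lower. Bcl2, which blocks apoptosis, was at 583 and 424 CPM against 34.5 to 163 CPM, with a log2 fold change of 2.32 that was 1.14 with the intron shift removed. The lower gene was its relative Bcl2a1d, at 7.70 and 7.72 CPM against 67.2 to 129.6 CPM (−3.46, edgeR adjusted p = 1.4e-04). Bcl2a1d belongs to a family of near-identical copies, so its reads may be split among them. Csf1r, the receptor for the growth factor that these cells depend on, was at 824 and 795 CPM within 480.2 to 859 CPM of the spleen (0.24, edgeR adjusted p = 0.43).

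Immediate early genes, which tissue digestion can induce, were lower in 8 and higher in 5 of 20 tested genes of 23 (15.8% and 27.4% of all genes tested, median −0.23), and 6 and 6 with the intron shift removed. Zfp36, which destabilizes cytokine mRNA, was lower at 84.7 and 108 CPM against 648, 567, 541, 552, and 506 CPM (−2.58, SE 0.25, edgeR adjusted p = 2.9e-07). Atf3, a stress-induced repressor, was higher at 367 and 262 CPM against 27.9 to 68.6 CPM (2.85, edgeR adjusted p = 9.0e-07). Of 16 cell cycle genes 3 were tested, of which 0 were higher and 1 was lower. The share of thinned members with at least 2 of them was 9.88% ± 1.99 (SD, n = 2) and 6.10% ± 5.95 (SD, n = 5), with overlap (exact permutation p = 0.571), and T cells of the kidney held 37.7%. The direction turned in other settings, with a difference of −10.4 points when 1 gene sufficed, −22.2 points without thinning, and −6.88 points at 2000 UMIs.

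The genes with the largest differences were chosen by a fixed rule on size, level, and absence of overlap. Apart from the genes above, Lrmda was at 1846 and 1721 CPM in the kidney and at 0 in the spleen, at least 367-fold higher. Acod1, which makes the antimicrobial metabolite itaconate, was at 406 and 849 CPM, at least 104-fold higher. Nod2, a sensor of bacterial cell walls, was at 146 and 201 CPM, at least 32.3-fold higher, and Creb5 and Htr7 were at least 39.3-fold and 19.5-fold higher. These genes had 0 UMIs in the spleen members. Morrbid, a long noncoding RNA of myeloid cell survival, had a ratio of 100.5 (counting interval 27.4 to 836.3), Spon1 one of 115.1 (31.4 to 956.9), and Batf2 one of 102.8 (18.0 to 4107), each on 2 spleen UMIs or fewer.

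Some of these genes also differed between the tissues in T cells. Cmss1 was at 3178 and 3534 CPM in kidney members and at 0 to 19.0 CPM in spleen members, but also at 1161 to 1657 CPM in kidney T cells and 10.2 to 14.3 CPM in spleen T cells. Lrmda was at 259 to 392 CPM in kidney T cells and 0 to 0.403 CPM in spleen T cells. Both are long genes, and their log2 fold changes with the intron shift removed were 7.74 and 10.68. Acod1 and Nod2 were at 39.7 to 46.0 and 13.3 to 17.8 CPM in kidney T cells, well below the members. How far a processing difference between the matrices enters these values was not tested. Of 10 kidney parenchyma and endothelium genes in the common table the sum was 331 to 394 CPM against 45.7 to 127 CPM in the spleen. Ass1, an enzyme of arginine synthesis that is abundant in renal tubules, made up most of it at 267 and 309 CPM (log2 fold change 3.80, edgeR adjusted p = 6.6e-08), with 68.5 to 97.5 CPM in kidney T cells, and 5 of the 10 genes were at 0 in kidney members.

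Of the genes lower in the kidney, Hpgd, the enzyme that inactivates prostaglandins, had 0 UMIs in the kidney members against 434, 288, 340.4, 314, and 575 CPM in the spleen, at least 65.9-fold lower. Nxpe4 was at 57.6 to 238 CPM in the spleen and likewise at 0, at least 24.8-fold lower. Fabp4, a fatty acid carrier typical of nonclassical monocytes, was at 2.57 and 0 CPM against 252, 19.2, 179, 304, and 138 CPM, a ratio of spleen to kidney of 95.01 (counting interval 16.7 to 3786). Napsa, an aspartic protease, was at 33.4 and 38.6 CPM against 480.2 to 575 CPM (−3.89, SE 0.29, edgeR adjusted p = 2.1e-08), the steadiest of the genes across the spleen libraries. Chil3, Ramp1, Fabp5, Tmem176a, and Tmem176b had log2 fold changes of −3.37, −3.80, −3.26, −3.12, and −3.11. The histone gene Hist1h2ap, whose reads many near-identical copies share, had a ratio of 52.2 (9.03 to 2096).

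A few of the lower genes moved with other cell types. Xcr1 was at 0 in the kidney and at 7.62, 442, 94.9, 85.6, and 115 CPM in the spleen, and Apol7c at 7.70 and 0 against 15.2, 596, 78.1, 114, and 69.0 CPM, both highest in spleen library 2. Without the members with other markers, whose markers include Xcr1, Apol7c was at 0 to 17.8 CPM in the spleen, and its call also ended without kidney library 1 (edgeR adjusted p = 0.060). Ighm, the IgM heavy chain of B cells, was lower at 10.3 and 0 CPM against 91.5 to 238 CPM (−4.38, edgeR adjusted p = 4.8e-06). Spleen T cells held 242 to 279 CPM of it, above every library of spleen members, and kidney T cells 123 to 161 CPM.

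Of the 18 genes that mark nonclassical monocytes but were not in the rule all were tested, 1 was higher (Fcgr4) and 6 lower, and 11 did not pass, with a median of −0.58 (background 15.8% lower), and 3 of the 6 met the low-count filter in the spleen alone. Under TMM scaling 10 were lower, and among the members without other markers 13 of 18 (background 18.6%). With the intron shift removed 5 were lower, 3 of them among the 6, and with 3 or 4 markers 5 were lower, 4 of them among the 6. Of the members 181 of 239 in the kidney and 52 of 135 in the spleen had 2 of the rule's markers. In members with 2 markers the 18 genes summed to 5800 CPM in the kidney and 5120 CPM in the spleen, with 9 genes higher and 9 lower. In members with 3 or 4 markers the sums were 7488 and 10369 CPM, with 3 genes higher and 15 lower, both over pooled libraries and without a test. Itgal was at 549 and 787 CPM against 929.9, 979.7, 1116, 1179.9, and 725 CPM (−0.57, edgeR adjusted p = 0.063), with overlap in spleen library 5 only. The summed level of the list was 5355 and 6542 CPM in the kidney and 6531 to 9334 CPM in the spleen. Of 11 tested classical monocyte genes of 15, 2 were higher and 5 lower (median −0.55), and of 6 tested macrophage genes of 16, 1 was higher and 4 lower (median −1.37), beside 27.4% and 15.8% of all genes tested. The filter was met by the spleen alone for 2 of the 5 lower classical and 3 of the 4 lower macrophage genes, and by the kidney alone for 1 of the 2 and for the 1 higher gene. The share of thinned members with at least 2 classical monocyte genes was 61.5% ± 13.4 (SD, n = 2) against 63.6% ± 9.71 (SD, n = 5), with overlap and a direction that turned in other settings (exact permutation p = 0.952), and 12.6% and 4.65% in T cells.

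The last comparison asked where the 2 kinds of monocyte differ in their tissue difference. UMIs were summed per library for both kinds, and the kidney minus spleen difference of nonclassical monocytes was set against that of classical monocytes, with the library as a block. Of 3838 genes tested, 29 (0.756%) had a difference above 0, where the nonclassical difference was the higher, and 66 (1.72%) below 0, or 2.48% in either direction, by edgeR at an adjusted p below 0.05. Among classical monocytes alone 1805 of 7077 genes (25.5%) were higher and 1172 (16.6%) lower in the kidney. The comparison rests on few classical cells in the spleen, 183 in all and 4 in library 5. Without spleen library 3 the calls were 6 and 34, without kidney library 1 they were 12 and 40, without kidney library 2 they were 11 and 41, and without spleen library 5 the genes above 0 were 18.

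Tgm2, a transglutaminase, stood farthest below 0, at −5.72 (SE 0.62, edgeR adjusted p = 1.6e-06). Classical monocytes held 426 and 485 CPM of it in the kidney and 0 to 2.02 CPM in the spleen, whereas nonclassical monocytes held 598 and 471 CPM in the kidney and already 114, 19.2, 134, 95.2, and 34.5 CPM in the spleen. Fcgr4 had the same form, with −3.29 (SE 0.46, edgeR adjusted p = 8.1e-05), 245 and 341 CPM in kidney classical monocytes, and 0 to 17.3 CPM in those of the spleen. Havcr2 (TIM-3), an inhibitory receptor, was at −3.87 (SE 0.59, edgeR adjusted p = 1.6e-04), and Cd274 at −3.18 (SE 0.58, edgeR adjusted p = 0.0013), a call that ended without spleen library 3 (edgeR adjusted p = 0.088). For Tgm2, Fcgr4, and Cd274 the ratio of the 2 kinds was nearer to 1 in the kidney than in the spleen.

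Of 7 tested MHC class II genes 4 were below 0 and 0 above, beside 1.72% and 0.756% of all genes tested. H2-Aa was at 3747 and 2414 CPM in kidney classical monocytes, close to the nonclassical 3160.4 and 2461 CPM, and at 325, 84.9, 153, 426, and 2297 CPM in spleen classical monocytes, the last from 4 cells. The difference was −2.72 (SE 0.51, edgeR adjusted p = 0.0016), with −3.07 for H2-Ab1, −2.90 for H2-Eb1, and −2.63 for Cd74. DESeq2 did not call any of the 4 genes (adjusted p = 0.27 to 0.44). Apoe was at −2.97 (SE 0.44, edgeR adjusted p = 1.3e-04), with 1793 and 447 CPM in kidney and 374 to 1647 CPM in spleen classical monocytes. Cd36 was at −4.52 (SE 0.91, edgeR adjusted p = 0.0036), which DESeq2 (adjusted p = 0.19) and the fit without spleen library 3 (edgeR adjusted p = 0.080) did not call.

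Several of the other genes below 0 lost their call when members with markers of other cells were left out. Such members of the spleen libraries had medians of 5541 to 9232 UMIs, beside 2785 to 5665 over all members, so depth left with them. What the lost calls rest on was not tested. Ccl5, a product of NK and T cells, was at −5.27. It was at −3.17 (edgeR adjusted p = 0.074) without members with NK cell, neutrophil, or platelet markers, Flt3, or Siglech. Cxcl9 (−5.11), Basp1 (−4.60), and Cxcl16 (−3.84) did not pass once members with the remaining dendritic cell markers were left out too (edgeR adjusted p = 0.53, 0.12, and 0.057). Of the 24 genes named for this comparison 4 lost the call in the first of these settings and 3 in the second. With 3 or 4 markers 3 lost it, and without the deepest members 2. Basp1 also lost its call without spleen library 3 (edgeR adjusted p = 0.077). Sash1 (−3.77) and Rab7b (−3.58) were at or below 154 CPM in every library of members, and they had no call without kidney library 2 (edgeR adjusted p = 0.26) and kidney library 1 (edgeR adjusted p = 0.13), respectively. DESeq2 did not call them either (adjusted p = 0.058 and 0.16).

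Above 0, the difference of nonclassical monocytes was the higher. Tnfaip2, a gene that TNF and interferon-gamma induce in endothelium and myeloid cells, was at 1841 and 2531 CPM in kidney members and at 122, 173, 61.4, 228, and 115 CPM in spleen members, while classical monocytes were at 914 and 1123 against 124 to 350.3 CPM (1.98, SE 0.29, edgeR adjusted p = 9.0e-05). F10, clotting factor X, was at 531 and 617 against 11.5 to 124 CPM in members and at 367 and 211 against 62.1 to 198 CPM in classical monocytes (2.30, SE 0.42, edgeR adjusted p = 0.0013). Plxnd1, a semaphorin receptor, was at 2.95 (SE 0.57, edgeR adjusted p = 0.0023). It had no call without kidney library 1 (edgeR adjusted p = 0.051), whereas Tnfaip2 and F10 passed in every alternative that was fitted. Itga1 (4.61), Morrbid (3.90), Lilra6 (2.59), Capg (1.90), and Pik3r6 (1.82) each lost the call without spleen library 3 (edgeR adjusted p = 0.10 to 0.15). Itga1 also lost it without kidney library 1 (edgeR adjusted p = 0.45). Lilra6 lost it without spleen library 5, kidney library 1, or kidney library 2 (edgeR adjusted p = 0.051 to 0.059), and Pik3r6 without spleen library 1, kidney library 1, or kidney library 2 (edgeR adjusted p = 0.092 to 0.42). DESeq2 did not call Lilra6, Capg, or Pik3r6 (adjusted p = 0.13 to 0.24). Kidney T cells held 159 to 284 CPM of Itga1 against 15.4 and 23.1 CPM in the members.

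**Figure D5:**
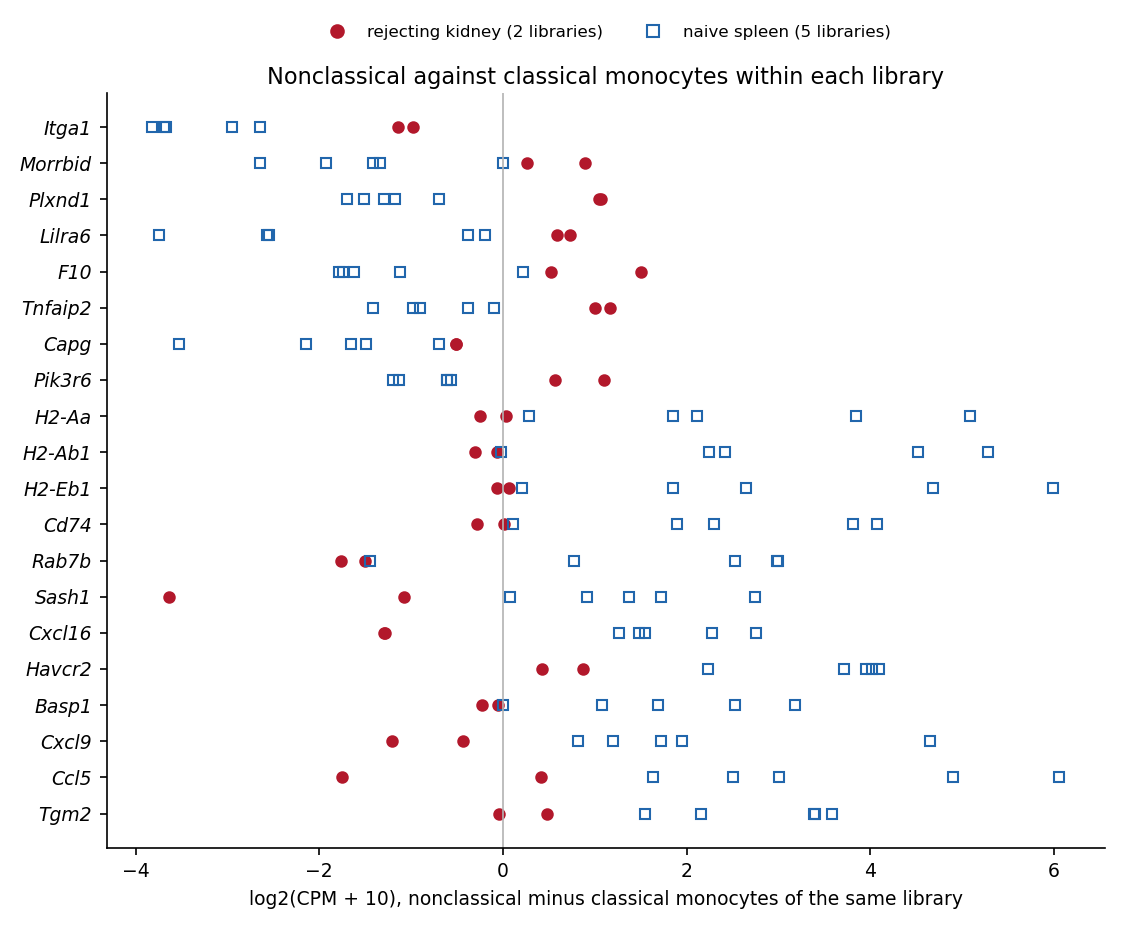
Log2(CPM + 10) of nonclassical minus classical monocytes within each library for 8 genes whose difference between the tissue differences was above 0, 4 MHC class II genes, and 8 genes below 0, the groups of 8 chosen by the fixed rule on size, level, and absence of overlap (filled circles 2 kidney libraries, open squares 5 spleen libraries). For H2-Aa the kidney circles lie near 0 and the spleen squares to the right of them, and for Tnfaip2 the circles lie to the right of every square.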

How the data were processed

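Leukocytes were sorted as viable CD45+ cells and their 3′ mRNA ends counted in droplets. The authors mapped the reads to mm10 with Cell Ranger, removed cells by UMIs, mitochondrial content, and genes, and deposited raw UMI counts, with the libraries of a tissue stacked in 1 matrix. The kidney table holds 32285 genes and that of the spleen 17644, all of them shared. Libraries were told apart by barcode tags.

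The members and gene lists were chosen with earlier results of these data known. UMIs were summed per library and tested with edgeR 4.0.16 (R 4.3.3) by the quasi-likelihood method on plain library totals, after filterByExpr (at least 2 libraries at the CPM of 10 counts in the median library), with Benjamini-Hochberg adjustment and a threshold of 0.05. The genes of the rule that passed the filter (5) were left out of calls. The second model compared monocyte kinds with the library as a block. Shares were compared over libraries by exact two-sided permutation tests (scipy 1.17.1). Intervals are exact Clopper-Pearson or conditional exact intervals at 95%, and these and the floor of 3 counts cover counting error only. DESeq2 1.42.0, TMM factors, no filter on low counts, an offset for intron length (17357 genes matched to GENCODE, 10 groups), stricter members, and leaving out each library were the alternatives. Both models were also run on counts simulated with a common dispersion and no intron shift. That setting is simpler than these data, and its outcome is not given here. No doublet caller was run, and members with over 3 times their library's median UMIs were left out in an alternative.

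Named genes were the 12 largest and 12 smallest log2 fold changes among calls with at least 100 CPM in the higher tissue and no overlap (8 and 8 for the second model), leaving out mitochondrial, ribosomal, immunoglobulin, T cell receptor, and unnamed genes, plus list genes that a description uses. Some genes of the lists entered the fits and counts but are not reported here by name.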

Additional observations from a re-analysis of the deposited data

Results flagged for a closer look

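In 9 of 89 values tested, 1 of the 5 spleen libraries stood apart from the other 4 by Dixon's test. Chance alone gives this in about 1 in 20 when values are normally distributed, a rate that need not hold for low counts. A gene with UMIs in only 1 spleen library is always flagged, whatever its level. That was so for Cxcl10, Cxcl2, and Batf2, whose flags therefore carry no weight. Spleen library 5 held 500 nonclassical per 100 classical monocytes, from 20 and 4 cells. Spleen library 2 was apart for Xcr1 (442 CPM), Apol7c (596 CPM), and Cxcl9 (240.1 CPM), and 6 of its 16 members had a UMI of a dendritic cell or other marker. Spleen library 5 was apart for Batf2 (11.5 CPM, 1 UMI), and spleen library 4 for Gbp2 (57.1 CPM). Spleen library 1 was apart for Cxcl10 (38.1 CPM), Cxcl2 (22.9 CPM), and Klf2 (1006 CPM). All 8 of these genes kept their direction between the tissues in each alternative that gave a value. Xcr1 was not tested without members with other markers or among members with 3 or 4 markers, so those settings say nothing on its direction.

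The kidney minus spleen difference was unequal between nonclassical and classical monocytes by edgeR's test of that difference for 24 genes named here, given on the log2 scale. It was above 0 for Itga1 (4.61), Morrbid (3.90), Plxnd1 (2.95), Lilra6 (2.59), F10 (2.30), Tnfaip2 (1.98), Capg (1.90), and Pik3r6 (1.82). It was below 0 for Tgm2 (−5.72), Ccl5 (−5.27), Cxcl9 (−5.11), Basp1 (−4.60), Cd36 (−4.52), Havcr2 (−3.87), Cxcl16 (−3.84), Sash1 (−3.77), and Rab7b (−3.58). It was also below 0 for Fcgr4 (−3.29), Cd274 (−3.18), H2-Ab1 (−3.07), Apoe (−2.97), H2-Eb1 (−2.90), H2-Aa (−2.72), and Cd74 (−2.63).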

How the results depend on the processing

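Calls between the tissues fell to 406 higher and 241 lower genes, of 1632 tested, with members of 3 or 4 markers. Without single libraries they ranged from 534 (without kidney library 1) to 860 higher and from 247 (without kidney library 1) to 504 lower, with 322 lower without kidney library 2. With no filter on low counts 1203 were higher and 608 lower of 12771 tested, and DESeq2 called 567 and 385. Over 82 named genes, 1148 values from alternatives kept direction and side of the threshold, 7 lost the call, 32 gained it, and 2 turned direction, both of Ciita (0.88 without deep cells and 1.03 without members with other markers). The difference between monocyte kinds was above 0 for 12 and below 0 for 37 genes in DESeq2 and above 0 for 14 genes with 3 or 4 markers. Without single libraries it ranged from 6 to 28 above and 34 to 81 below. Over its 24 named genes, 40 of 356 values lost the call and none turned. The difference in the classical monocyte share turned to 1.08 points when 1 gene sufficed and to 0.788 points at 2000 UMIs, and ranged from −11.6 to 7.35 points without single libraries, with 1.95 points without spleen library 5. The cell cycle difference turned to −10.4 points when 1 gene sufficed, −22.2 points without thinning, and −6.88 points at 2000 UMIs. The cause of these changes was not tested.

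No paired analysis was possible because no label pairs a kidney library with a spleen library. The smallest exact p for 2 against 5 libraries was 0.0952, so the shares had no way to pass 0.05, and a member held a median of 1943 and 1956 UMIs in the kidney libraries, which limits low genes.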
